A study of Arabidopsis thaliana with 12 samples.

Results

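Ribosome association, the level of an mRNA on ribosomes relative to its level in total mRNA, was compared between eif4e mutant and wild type seedlings of Arabidopsis thaliana. The comparison used all 12 libraries of the series. They fell into 4 groups of 3: total mRNA of wild type (Total.WT), total mRNA of the mutant (Total.4e), ribosome-bound mRNA of wild type (Ribo.WT) and ribosome-bound mRNA of the mutant (Ribo.4e). All seedlings were of the Columbia ecotype, 9 days old, grown at 22 °C with days of 16 h light and nights of 8 h, and frozen whole at ZT16 (16 h after lights on). Ribosomes were collected by immunopurification in both genotypes. The mutant allele, the tag used to collect the ribosomes and the cells that carried it are not given in the sources used here, and neither is whether replicates were grown apart. The p-values therefore speak only for the spread among these libraries.

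The cap at the start of an mRNA is bound by eIF4E. With the scaffold eIF4G and the helicase eIF4A it brings the small ribosomal subunit to the mRNA, and plants also carry a second version of this complex, built on eIFiso4E and eIFiso4G. An mRNA found on immunopurified ribosomes is one that ribosomes hold, whether or not they are moving along it. The tested quantity was the log2 change between genotypes in ribosome-bound mRNA minus that in total mRNA, called the interaction below. A negative value means that ribosome association was lower in the mutant. The ribosome-bound and total library of 1 genotype with the same replicate number form a pair, and the log2 ratio of their scaled counts is called the pair ratio.

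Libraries held 17058704 to 24673644 counts, with a median of 337 to 479 counts for a tested gene. Replicates of a group correlated by 0.976 to 0.993 over genes. Markers of several organs were present, as whole seedlings should show. All 23 tested root markers and all 20 tested light-harvesting genes had reads in every group. The summed level of the root markers was 2650 to 3370 FPKM (a level scaled for gene length and library depth) in Total.WT and 1820 to 2320 FPKM in Total.4e. On ribosomes it was 1850 to 2080 FPKM in Ribo.WT and 1250 to 1550 FPKM in Ribo.4e. Root markers were thus lower in Total.4e and Ribo.4e than in their controls. Fewer root cells and less of these mRNAs per cell cannot be told apart in whole seedlings, and the part of this difference in the results below was not tested.

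EIF4E (AT4G18040, also called EIF4E1), the gene that the mutant is named for, was low in the mutant, but 1 mutant library stood apart. Its level was 45.8, 44.0 and 44.2 FPKM in Total.WT replicates 1 to 3 and 8.28, 24.2 and 8.29 FPKM in Total.4e. In Ribo.WT it was 71.8, 92.9 and 87.2 FPKM and in Ribo.4e 12.3, 11.6 and 13.9 FPKM. Replicate 2 of Total.4e held more EIF4E mRNA than the others of its group, and its ribosome-bound partner did not. The pair ratios were 0.77, 1.18 and 1.11 in wild type and 0.60, -1.06 and 0.83 in the mutant, so the genotypes overlapped through the mutant's replicate 3. The interaction was -1.09 ± 0.45 (SE, edgeR's quasi-likelihood test, adjusted p = 0.207) and did not pass. The exact two-sided permutation test of the 3 against 3 pair ratios gave p = 0.2, where the smallest possible value is 0.1. With the pair as a block it was -1.01 (adjusted p = 0.00858), without library Total.4e 2 it was -0.39, and without both libraries of mutant replicate 2 it was -0.30 with the block (adjusted p = 0.162).

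Ribosome association differed between the genotypes for 772 of 19170 tested genes, 4.03% (adjusted p under 0.05). Of these, 451 (2.35%) had lower and 321 (1.67%) had higher association in the mutant. Most shifts were small. The median was -0.64 among the lower and 0.48 among the higher genes, and 40 genes were lower and 1 was higher by at least 2-fold. Over all genes the median was -0.01. The pair ratios of the genotypes did not overlap in any of the 772, which describes the values behind the calls and adds no evidence to them (18.7% of all genes were separated in each direction). The pairing of the libraries mattered for the count. With the pair as a block 4417 genes (23%) passed, 2050 higher (10.7%) and 2367 lower (12.3%), and all 772 were among them. With the replicate number as a block across genotypes 1937 genes (10.1%) passed, 875 higher (4.56%) and 1062 lower (5.54%).

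In the main fit, which had no block, the number of calls rested on single libraries. The fit with the pair as a block was not run with single libraries left out. Left out 1 at a time, the libraries gave 161 to 1607 calls, and 10 of 12 moved the count by over 1.5 times. Those that lowered it were Total.WT 1, 2 and 3 (191, 189 and 261), Total.4e 2 and 3 (236 and 161), Ribo.WT 1 and 2 (215 and 364) and Ribo.4e 1 and 2 (207 and 295), and without Ribo.4e 3 it was 1607. Without both libraries of mutant replicate 2, whose total library stood apart in EIF4E, 84 genes passed (79 lower), or 3093 with the pair as a block, 771 of the 772 among them. With scaling by library size alone 566 were higher and 324 lower, in place of 321 and 451, and the median over all genes was 0.07.

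**Figure D1:**
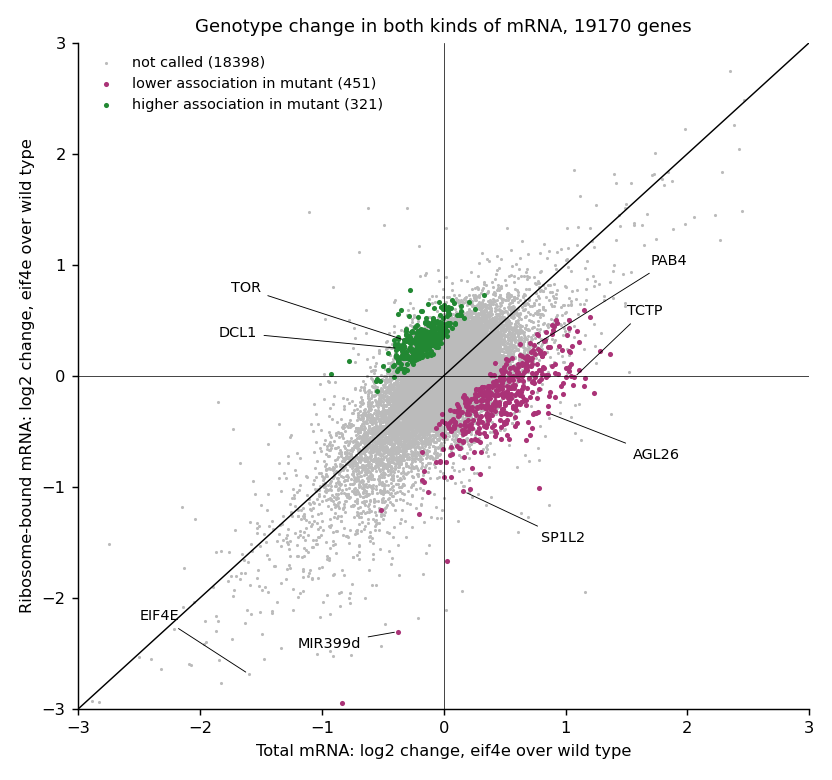
Log2 change between genotypes in total mRNA (horizontal axis) against that in ribosome-bound mRNA (vertical axis), 1 point per gene, with the line of equal change; 17 genes lie outside the plotted range of 3 on either side. The 451 genes with lower association lie below the line, most of them to the right of 0 on the horizontal axis, and the 321 with higher association lie above it.

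Lower association came mostly with more total mRNA. Over all genes 17% were called between genotypes in total mRNA and 27.3% on ribosomes, where 12% fell. Of the 451 lower genes, 235 (52.1%) rose in total mRNA without a call on ribosomes, and 72 (16%) rose in total mRNA and fell on ribosomes. Another 115 (25.5%) fell on ribosomes only, 26 rose in both kinds and 3 fell in both. Together 73.8% of the lower genes rose in total mRNA, where 10.4% of all tested genes did. The median change of the lower genes was 0.46 in total and -0.19 in ribosome-bound mRNA. Higher association came mostly with more mRNA on ribosomes. Of the 321 higher genes, 210 (65.4%) rose on ribosomes only, 65 (20.2%) fell in total mRNA only, and 38 (11.8%) did both, where 15.4% of all tested genes rose on ribosomes and 6.54% fell in total mRNA. These shares describe where the interaction came from, since the same libraries give all 3 contrasts.

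Among genes with a symbol and a mean of at least 5 FPKM, the lowest interactions included TCTP, ubiquitin-conjugating enzymes and vesicle traffic genes, with total mRNA about 2-fold up and ribosome-bound mRNA near its wild type level. TCTP (AT3G16640), the translationally controlled tumour protein, which promotes growth and is a known target of control at the level of translation, was the most abundant of them. It held 1809, 1630 and 1814 FPKM in Total.WT and 3055, 3680 and 3357 FPKM in Total.4e. On ribosomes it held 1428, 1513 and 1252 FPKM in Ribo.WT and 1240, 1385 and 1397 FPKM in Ribo.4e. The total libraries were separated by genotype and the ribosome-bound libraries overlapped. Pair ratios were -0.22, -0.01 and -0.40 in wild type and -1.27, -1.42 and -1.18 in the mutant, which gave an interaction of -1.09 ± 0.14 (adjusted p = 0.00534).

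UBC8 (AT5G41700), UBC28 (AT1G64230) and UBC10 (AT5G53300) encode closely related enzymes that pass ubiquitin on to target proteins. UBC8 stood at 201, 179.9 and 199 FPKM in Total.WT and at 346, 392 and 367 FPKM in Total.4e. In Ribo.WT it stood at 174, 156 and 136 FPKM and in Ribo.4e at 131, 147 and 149.6 FPKM. Its interaction was -1.14 ± 0.13 (adjusted p = 0.00492), that of UBC28 was -1.05 ± 0.13 (adjusted p = 0.00492) and that of UBC10 was -0.86 ± 0.12 (adjusted p = 0.00772). The other 4 tested members of the group were UBC9 (-0.09 ± 0.12), UBC11 (-0.28 ± 0.19), UBC29 (-0.21 ± 0.15) and UBC30 (-0.18 ± 0.15), and none of them passed, though UBC11 did with the pair as a block (adjusted p = 0.025). UBC9 held 122, 128 and 118 FPKM in Total.WT and 104, 110 and 103 FPKM in Total.4e, so its total mRNA was not higher in the mutant, unlike that of UBC8.

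ARFA1E (AT3G62290), a small GTPase that recruits vesicle coats, had the same pattern among its near-identical relatives. Its level was 502, 467 and 524 FPKM in Total.WT and 803, 957 and 905 FPKM in Total.4e. On ribosomes it was 369.7, 384 and 321 FPKM (Ribo.WT) and 302, 336 and 341 FPKM (Ribo.4e). The interaction was -1.06 ± 0.13 (adjusted p = 0.00492). ARFA1A (listed as AT1G23490, -0.18 ± 0.19), ARF1A1C (-0.14 ± 0.10), ARFA1D (-0.11 ± 0.07) and ARFA1F (-0.18 ± 0.11) did not pass. The counting program is not given, so reads that match several members of these families could have been split among them, and differences between near-identical relatives are uncertain for that reason.

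**Figure D2:**
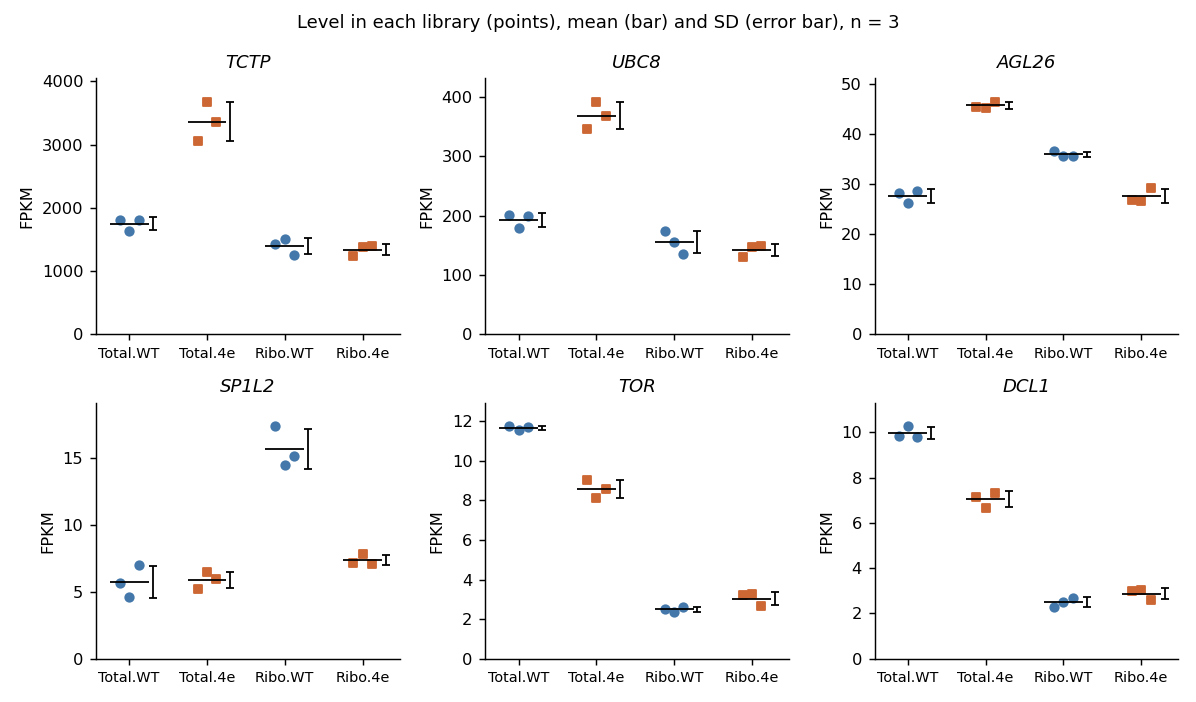
Level in FPKM of 6 genes in each library, by group (Total.WT, Total.4e, Ribo.WT, Ribo.4e), with points for libraries, a bar for the mean and an error bar for the SD of 3 libraries. For TCTP and UBC8 the total libraries of the mutant stand apart and the ribosome-bound ones overlap between genotypes, SP1L2 differs on ribosomes only, and AGL26, TOR and DCL1 move in opposite directions in the 2 kinds of mRNA.

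VAMP724 (AT4G15780), a vesicle fusion protein, and ZEU1 (AT5G59440), a thymidylate kinase of nucleotide synthesis, followed the pattern of TCTP. VAMP724 had total levels of 51.6, 45.7 and 55.3 FPKM in Total.WT and 85.8, 93.5 and 100.2 FPKM in Total.4e, and its interaction was -1.01 ± 0.12. ZEU1 had 13.8, 12.8 and 15.2 FPKM in Total.WT, 22.97, 31.2 and 28.5 FPKM in Total.4e and an interaction of -1.06 ± 0.15. On ribosomes VAMP724 changed by -0.01 and ZEU1 by 0.06 (log2), neither past the threshold.

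AGL26, SPT42 and RALFL32 went in opposite directions in the 2 kinds of mRNA. AGL26 (AT5G26880) had the smallest adjusted p of all named genes. It held 28.2, 26.1 and 28.7 FPKM in Total.WT and 45.4, 45.2 and 46.4 FPKM in Total.4e, then 36.5, 35.5 and 35.6 FPKM in Ribo.WT and 26.8, 26.6 and 29.2 FPKM in Ribo.4e. The genotypes were separated in both kinds, and the order reversed. Its pair ratios were 0.49, 0.54 and 0.45 in wild type and -0.73, -0.77 and -0.58 in the mutant, an interaction of -1.19 ± 0.09 (adjusted p = 4.94e-04). SPT42 (AT5G63670), a homolog of the transcription elongation factor SPT4, changed by 0.51 in total and by -0.42 in ribosome-bound mRNA (interaction -0.94 ± 0.13, adjusted p = 0.00622). RALFL32 (AT4G14010), of a family of secreted signalling peptides, changed by 0.47 and -0.57 (interaction -1.05 ± 0.18, adjusted p = 0.0131). Its total libraries overlapped in FPKM, with 31.49, 27.69 and 32.25 in Total.WT and 31.53, 42.65 and 41.9 in Total.4e.

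SP1L2 and MIR399d fell on ribosomes without a call in total mRNA. SP1L2 (AT1G69230), of the SPIRAL1-like proteins that bind microtubules, held 5.66, 4.59 and 6.97 FPKM in Total.WT and 5.21, 6.44 and 5.97 FPKM in Total.4e. On ribosomes it held 17.37, 14.5 and 15.1 FPKM (Ribo.WT) and 7.18, 7.82 and 7.10 FPKM (Ribo.4e). The interaction was -1.203 ± 0.20 (adjusted p = 0.0123). The other tested SPIRAL1-like genes, SPR1 (-0.35 ± 0.11), SP1L3 (-0.23 ± 0.14), SP1L4 (0.09 ± 0.44) and SP1L5 (-0.35 ± 0.35), did not pass, and SPR1 did with the pair as a block (adjusted p = 0.00428). MIR399d (AT2G34202), the precursor of a microRNA of phosphate starvation, held 8.97, 10.8 and 9.52 FPKM in Total.WT, 7.45, 7.91 and 5.34 FPKM in Total.4e, 16.1, 14.3 and 12.6 FPKM in Ribo.WT and 3.86, 2.30 and 2.21 FPKM in Ribo.4e. Its interaction was -1.93 ± 0.37 (adjusted p = 0.022), and it lost the call without Total.WT 1 or 3, Total.4e 2, Ribo.WT 1 or Ribo.4e 2 (adjusted p up to 0.0666). The counts of MIR399d were too low in every library for a length to be computed, so these values rest on few reads.

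Of the 24 lower genes that the naming rule gave, 14 stayed past the threshold without any 1 of the 12 libraries. They were AGL26, VAMP724, SPT42, ZEU1, RALFL32, ARFA1E, RPS15A, SP1L2, TCTP, UBC8, UBC28, UBC10, RPL34 and RPS18C.

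**Figure D3:**
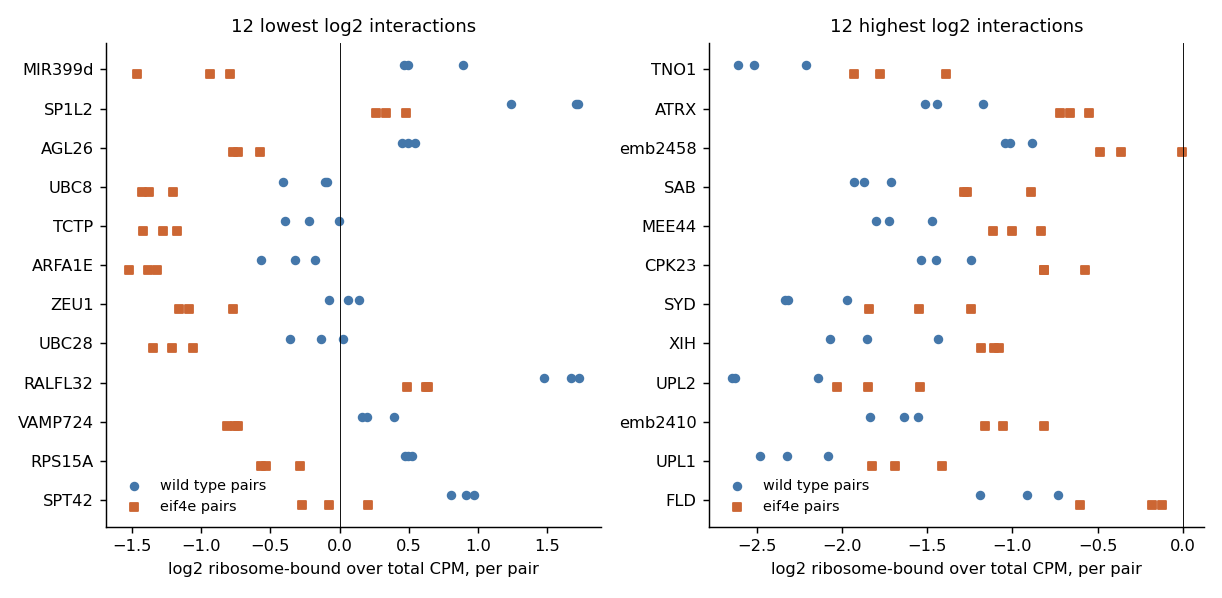
Pair ratios (log2 of ribosome-bound over total scaled counts, horizontal axis) of the 12 genes with the lowest and the 12 with the highest interaction among called genes with a symbol and a mean of at least 5 FPKM. Circles are the 3 wild type pairs and squares the 3 mutant pairs; the genotypes do not overlap in any of the 24, which the choice of the genes required.

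Components of the translation machinery were among the genes with lower association. The lists of ribosomal proteins hold only genes whose annotated names matched a pattern, and may leave out others. Of 15 tested genes listed for the cytosolic small ribosomal subunit 5 were lower and 0 higher. Of 18 listed for the large subunit 3 were lower and 0 higher, against 2.35% lower over all genes. DESeq2 called 9 and 5 lower in the lists, where it called 697 of 19170 lower over all genes, and 0 higher. At an unadjusted p under 0.05, 12 and 8 were lower and 0 higher (3854 of 19170 in either direction over all genes). In the fit with pairs as blocks 13 and 8 were lower (12.3% over all genes). The median interaction was -0.45 for the small and -0.19 for the large subunit, beside -0.01 for all genes. Of these 33 genes 31 were below 0, where 9790 of 19170 tested genes were. These mRNAs were short, with median lengths of 827 and 867 bases, and among the shortest genes 6.75% were lower. Of the more abundant 2327 of those shortest genes 276 were lower, and of the less abundant 2327 there were 38. Ribosomal protein genes such as RPS15A and RPL34 were abundant, with means of 268 and 354 FPKM. With a length trend removed from each library the medians were -0.21 and -0.12, and 2 and 2 genes were lower. In total mRNA 23 of the 33 rose, where 10.4% of all genes did, and on ribosomes 5 did, near the 15.4% of all genes. RPS15A (AT1G07770) had the lowest interaction. It held 198, 185 and 203 FPKM in Total.WT and 332, 374 and 388 FPKM in Total.4e, but 252, 248 and 260.5 FPKM in Ribo.WT and 219.6, 261 and 298 FPKM in Ribo.4e (interaction -0.95 ± 0.15, adjusted p = 0.0106). RPL34 (AT1G69620, -0.80 ± 0.12), RPS18C (-0.73 ± 0.12), RPS13A (-0.55 ± 0.13), RPS5A (-0.54 ± 0.11), RPS10B (-0.48 ± 0.09), RPL23AA (-0.48 ± 0.10) and SAC52, which encodes a large-subunit protein (-0.48 ± 0.11), also passed. RPS5A, RPS10B, RPL23AA and SAC52 lost the call without some libraries, Total.WT 1 and Ribo.WT 1 in every case (adjusted p up to 0.112).

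The elongation factor subunit gene eEF-1Bb1 (-0.61 ± 0.11, adjusted p = 0.0176), PAB4, a protein that binds the poly(A) tail (-0.47 ± 0.08, adjusted p = 0.0154), and EIF3K, a subunit of the initiation factor eIF3 (-0.47 ± 0.09, adjusted p = 0.023), were lower too. Most of their relatives were not called. eEF-1Bb1 was the 1 called of 5 tested elongation genes (median -0.13), against 2.35% lower over all genes. EIF3K was the 1 called of 12 tested eIF3 and eIF2 subunits, of which 7 lay above 0 (median 0.02). With the pair as a block 2 of these 12 were higher and 1 was lower (10.7% and 12.3% over all genes). PAB2 (-0.08 ± 0.07) and PAB8 (-0.04 ± 0.09) did not pass in either fit. PAB4 held 55.2, 55.6 and 58.8 FPKM in Total.WT, 85.3, 84.3 and 90.0 FPKM in Total.4e, 36.6, 33.8 and 38.4 FPKM in Ribo.WT and 42.0, 43.4 and 41.9 FPKM in Ribo.4e. It rose in both kinds of mRNA, by 0.74 in total and by 0.27 on ribosomes (log2), without overlap in either. PAB4 lost its call without Total.WT 1 or Total.4e 3 (adjusted p up to 0.0634), eEF-1Bb1 also without Total.WT 2, and EIF3K without 7 libraries.

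PAB4 was the 1 member that passed among the 17 tested genes of the cap-binding complex and its partners (2.35% lower over all genes). Of the 17 genes 9 lay above 0 and 8 below. With the pair as a block 3 were higher and 3 lower, against 10.7% higher and 12.3% lower over all genes. LSP1, the gene of eIFiso4E, had pair ratios of 0.92, 1.01 and 0.87 in wild type and 0.89, 0.92 and 1.09 in the mutant, an interaction of 0.04 ± 0.10 (adjusted p = 0.913). NCBP (AT5G18110), a further cap-binding protein, had pair ratios of 0.56, 0.21 and 0.47 in wild type and 0.02, -0.13 and 0.09 in the mutant. These were separated (interaction -0.42 ± 0.13, adjusted p = 0.0915), and the gene passed with the pair as a block (adjusted p = 0.00245). The scaffold EIF4G (0.34 ± 0.13, adjusted p = 0.153) passed with the pair as a block (adjusted p = 0.00621). The initiation factor gene EIF4B1 (0.25 ± 0.09) and ABH1, a cap-binding protein of the nucleus (0.24 ± 0.08), likewise passed with the block alone (adjusted p = 0.0436 and 0.0475). The helicase genes EIF4A1 (-0.04 ± 0.09) and EIF4A-2 (0.00 ± 0.11) did not pass in either fit.

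Genes with higher association included TOR, the kinase that couples growth to nutrients, and DCL1, DCL3 and DCL4 of small RNA production. TOR (AT1G50030) held 11.8, 11.6 and 11.7 FPKM in Total.WT and 9.05, 8.13 and 8.59 FPKM in Total.4e. On ribosomes it held 2.51, 2.38 and 2.64 FPKM (Ribo.WT) and 3.20, 3.27 and 2.65 FPKM (Ribo.4e). Genotypes were separated in total mRNA and on ribosomes, though Ribo.4e 3 lay next to the wild type. Pair ratios were -2.10, -2.17 and -2.01 in wild type and -1.47, -1.32 and -1.60 in the mutant, so TOR stayed depleted from ribosomes relative to other genes in both genotypes (interaction 0.63 ± 0.10, adjusted p = 0.0106). Of 6 tested genes of TOR and GCN2 signalling 2 were higher (1.67% over all genes). With the pair as a block 3 were higher and 1 was lower (10.7% and 12.3% over all genes). RAPTOR1, a partner protein of TOR, was the other higher gene (0.38 ± 0.08, adjusted p = 0.0354), and lost the call without 10 of the 12 libraries (adjusted p up to 0.0956). LST8-1, another partner protein, had the opposite sign (-0.27 ± 0.10, adjusted p = 0.136, and 0.0126 with the pair as a block). The kinase gene GCN2 (0.47 ± 0.16, adjusted p = 0.12) passed with the pair as a block (adjusted p = 0.00845). The S6 kinase genes PK1 (0.02 ± 0.10) and S6K2 (-0.19 ± 0.44) did not pass in either fit. The median of the 6 was 0.20, and -0.05 with the length correction.

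DCL1 (AT1G01040), the nuclease that cuts microRNA precursors, held 9.85, 10.3 and 9.78 FPKM in Total.WT and 7.16, 6.67 and 7.32 FPKM in Total.4e. In Ribo.WT it held 2.29, 2.52 and 2.70 FPKM and in Ribo.4e 2.99, 3.03 and 2.62 FPKM, where the genotypes overlapped through Ribo.4e 3. Its interaction was 0.62 ± 0.10 (adjusted p = 0.0133). Of 10 tested genes of small RNA machinery DCL1, DCL3 (0.65 ± 0.16) and DCL4 (0.54 ± 0.12) were higher, against 1.67% over all genes. There were 0 lower, also at an unadjusted p under 0.05 and with DESeq2, and 8 were higher with the pair as a block (10.7% over all genes). The median of the list was 0.32, and 0.07 with the length correction, where edgeR called 0 members. The median length of these genes was 3442 bases. DCL3 and DCL4 lost the call without 9 of the 12 libraries each (adjusted p up to 0.124).

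SAB (AT1G58250), which acts in the direction of cell growth, had pair ratios of -1.93, -1.87 and -1.71 in wild type and -1.27, -0.89 and -1.28 in the mutant (interaction 0.69 ± 0.11, adjusted p = 0.0116). SAB, TOR and DCL1 were the 3 of 21 higher genes under the naming rule that kept the call without any 1 library, and without both libraries of mutant replicate 2 their adjusted p was 0.058, 0.0719 and 0.084 (all under 0.001 with the pair as a block). The other genes with the highest interactions were TNO1, a protein of the trans-Golgi network (0.76 ± 0.17), the chromatin remodelling gene ATRX (0.74 ± 0.13), emb2458 (0.69 ± 0.13), MEE44 (0.68 ± 0.14), the calcium-dependent kinase gene CPK23 (0.67 ± 0.12), the chromatin remodelling gene SYD (0.67 ± 0.16), the myosin gene XIH (0.66 ± 0.15), the ubiquitin ligase genes UPL2 (0.66 ± 0.17) and UPL1 (0.65 ± 0.13), emb2410 (0.66 ± 0.12) and FLD (0.64 ± 0.16). Each of these 11 lost the call without at least 2 libraries, Total.WT 1 or 2 among them (adjusted p up to 0.124). Their wild type ratios were negative throughout. The mutant ratios were higher in every pair, which the choice of the genes required, and they stayed below 0.

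Called genes differed from other genes in mRNA length and in level. Length here is the length behind the authors' FPKM values, computed back from counts and FPKM. Lower genes had a median length of 859 bases and higher genes of 3729 bases, against 1543 bases for all tested genes. Of 4654 genes in the shortest of 4 equal length groups (up to 1065 bases) 314 (6.75%) were lower and 1 was higher. Of 4649 genes in the longest group (from 2089 bases) 8 were lower and 304 (6.54%) were higher. The median interaction rose from -0.25 in the shortest group through -0.06 and 0.05 to 0.21 in the longest. Across 18612 genes with a length, Spearman's rho between interaction and length was 0.65 and Pearson's r with log2 length was 0.63, a description across genes that share libraries and not a test. Lower genes were also more abundant, with a median level of 53.2 FPKM against 9.38 FPKM for the higher and 12.2 FPKM for all genes. Of the 314 lower genes among the shortest, 276 lay in the more abundant 2327 of that group and 38 in the less abundant 2327, with median interactions of -0.26 and -0.24.

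Short mRNAs had higher pair ratios than long ones in both genotypes, and this slope was flatter in the mutant. Length is also a known source of technical trends between libraries, and the cause of the slope and of its difference between genotypes was not tested. In wild type pairs the median ratio of the shortest group was 0.83, 0.84 and 0.81, and in mutant pairs 0.55, 0.50 and 0.67. In the longest group it was -0.67, -0.70 and -0.60 in wild type and -0.44, -0.42 and -0.50 in the mutant. The genotypes were separated at both ends. Per doubling of length the pair ratio fell by 0.73, 0.75 and 0.67 in wild type and by 0.46, 0.42 and 0.56 in the mutant, with the pair of replicate 3 closest to the other genotype in each. The mean slopes were -0.72 ± 0.04 and -0.48 ± 0.07 (SD, n = 3), and the exact two-sided permutation test gave p = 0.1, the smallest it can give. Over genes, the pair ratios spread with an SD of 0.79, 0.81 and 0.78 in wild type and 0.65, 0.64 and 0.71 in the mutant.

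The flatter slope was seen on the ribosome side. Relative to the mean of all libraries, the slope of log2 level per doubling of length was 0.32, 0.33 and 0.32 in Total.WT and 0.32, 0.25 and 0.27 in Total.4e. It was -0.41, -0.43 and -0.35 in Ribo.WT and -0.15, -0.17 and -0.28 in Ribo.4e, where replicate 3 lay nearest to the wild type. The change between genotypes correlated with length by a rho of -0.12 in total mRNA and of 0.44 on ribosomes.

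**Figure D4:**
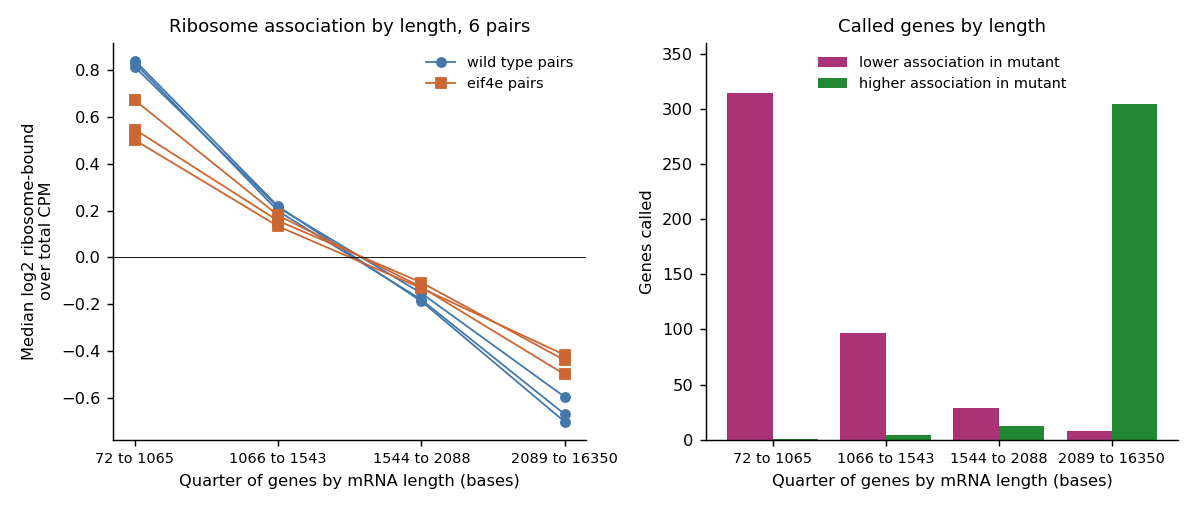
Left, median pair ratio (vertical axis, log2) in 4 equal groups of genes by length for the 3 wild type and 3 mutant pairs; the mutant pairs lie closer to 0 in the shortest and the longest group. Right, number of called genes per group: 314 of those with lower association lie in the shortest group and 304 of those with higher association in the longest.

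With a smooth length trend removed from each library, 137 genes (0.715%) differed, 133 lower (0.694%) and 4 higher (0.0209%), and 1716 (8.95%) with the pair as a block too, 438 higher (2.28%) and 1278 lower (6.67%). Of the 133 lower genes 128 were among the 451, and 119 (89.5%) rose in total mRNA. Their median change was 0.61 in total and -0.15 in ribosome-bound mRNA. Within this set stood AGL26 (-1.21, adjusted p = 5.44e-04), UBC8 (-1.12), UBC28 (-0.92), ARFA1E (-0.92), TCTP (-0.92) and VAMP724 (-0.84, adjusted p = 0.00629 for each of the 5). ZEU1 (-0.97), UBC10 (-0.70), RPS15A (-0.68), PAB4 (-0.63), SPT42 (-0.61), RPL34 (-0.50), RPL23AA (-0.49), RPS18C (-0.49) and MIR399d, which had no length and so no correction (-1.93), were also past the threshold. RALFL32 (-0.69, adjusted p = 0.0579), SP1L2 (-0.89, adjusted p = 0.0787) and eEF-1Bb1 (-0.48, adjusted p = 0.0511) were not, though they passed with the pair as a block too. None of the 21 higher genes under the naming rule passed with the length correction, where edgeR called 4 higher genes in all. TOR was at 0.05, DCL1 at 0.11 and SAB at 0.10, and UPL1, SYD, UPL2, VCS and RAPTOR1 turned to values from -0.06 to -0.01. CPK23, ATRX, emb2458, FLD and ABF3 passed with both the length correction and the pair as a block (adjusted p of 0.00404 to 0.0428).

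Photosynthesis genes had more total mRNA in the mutant and no call for association. Of 20 tested light-harvesting genes 15 rose in total mRNA (10.4% over all genes) and 9 on ribosomes (15.4% over all genes), and 0 were called in the interaction (1 lower at an unadjusted p under 0.05 and 1 with DESeq2). With the pair as a block 11 were lower (12.3% over all genes). The lowest was LHB1B2 (AT2G34420), a light-harvesting protein of photosystem II, whose wild type pair ratios were -0.04, -0.30 and -0.15 and whose mutant pair ratios were -0.80, -1.06 and -0.88. These did not overlap (interaction -0.76 ± 0.25, adjusted p = 0.11, and 3.51e-06 with the pair as a block). By the same measures 19 of 29 genes of photosystem cores and the Rubisco small subunit rose in total mRNA and 10 on ribosomes, and 0 were called in the interaction (1 lower at an unadjusted p under 0.05, 0 with DESeq2, and 11 lower with the pair as a block). Median interactions were -0.21 and -0.14, and -0.13 and 0.03 with the length correction. Below 0 were 17 of the 20 light-harvesting genes and 27 of the 29 others. Gene copies of light-harvesting proteins are near-identical and their counts uncertain.

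**Figure D5:**
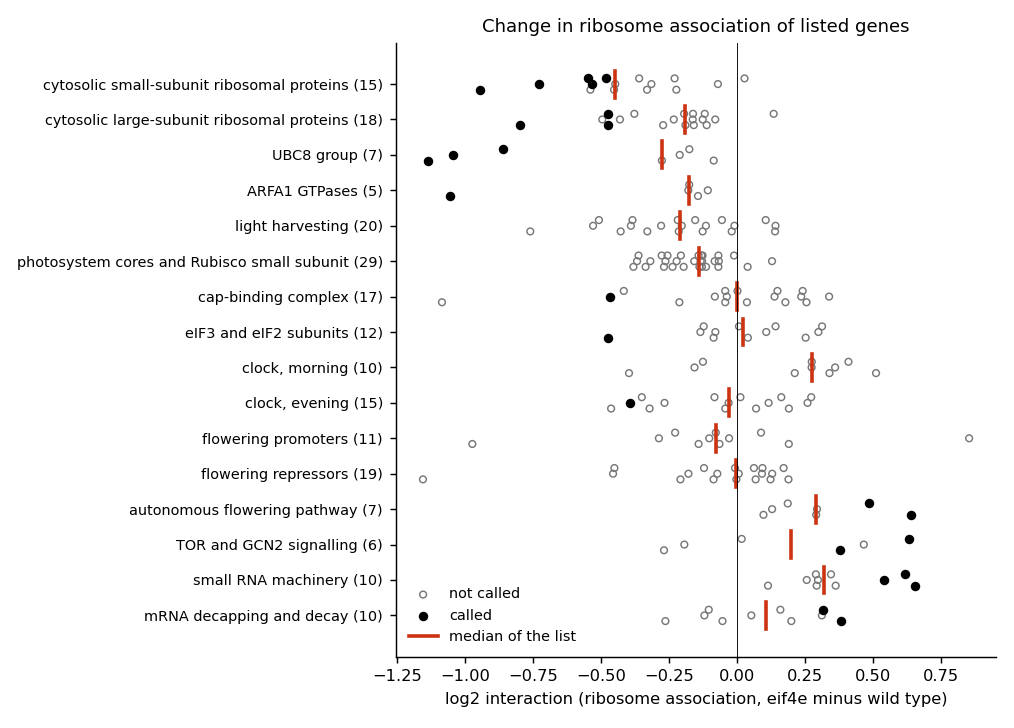
Log2 interaction (horizontal axis) of the tested members of 16 gene lists, with the number of members in brackets; filled points are called genes, open points are not, and the red bar is the median. Of the ribosomal proteins matched by name 31 of 33 lie to the left of 0, where 9790 of 19170 tested genes do. So do 17 of 20 light-harvesting genes and 27 of 29 genes of photosystem cores and the Rubisco small subunit. The 10 genes of small RNA machinery lie to the right, and flowering promoters and repressors hold no called member.

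Clock and flowering genes were examined because the title of the series names both processes. Of 25 tested clock genes 1 was lower, near the 4.03% called over all genes, and 0 were higher (3 higher and 5 lower at an unadjusted p under 0.05, and 0 higher and 2 lower with DESeq2). With the pair as a block 2 of 10 morning genes were higher and 1 was lower, and 2 of 15 evening genes were higher and 4 lower, against 10.7% higher and 12.3% lower over all genes. Those lower with the block were ATAN11 (adjusted p = 0.000995), LCL1 (0.00169), ELF4 (0.00159), TCP11 (0.00387) and BOA (0.00664), and those higher were ELF3 (0.015), AT3G54500 (0.0357), RVE1 (0.0375) and PRR3 (0.0392). The gene called without the block was ELF4 (AT2G40080), a part of the evening complex that represses other clock genes. Its level was 58.0, 60.05 and 57.5 FPKM in Total.WT and 54.03, 53.5 and 51.7 FPKM in Total.4e, and 186, 185 and 174 FPKM in Ribo.WT and 136, 127 and 136 FPKM in Ribo.4e. The interaction was -0.40 ± 0.09 (adjusted p = 0.0379), 10 of the 12 libraries were needed for the call (adjusted p up to 0.102 without 1 of them), and with the length correction it was -0.07. CCA1, a morning clock regulator, had pair ratios of -0.64, -0.45 and -0.84 in wild type and -0.42, -0.13 and 0.08 in the mutant, separated but not called (0.51 ± 0.19, adjusted p = 0.152). Morning genes had a median of 0.27 over 10 genes, which was 0.13 with the length correction.

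Of 11 flowering promoters and 19 repressors 0 were called (2 and 1 at an unadjusted p under 0.05, 0 and 0 with DESeq2). SPL3, a flowering promoter of the age pathway, had pair ratios of 1.18, 0.84 and 1.51 in wild type and -0.004, 0.25 and 0.57 in the mutant (interaction -0.97 ± 0.44, adjusted p = 0.24), and passed with the pair as a block (adjusted p = 0.00187). The smallest p among promoters was that of SPL5 (0.85 ± 0.35, adjusted p = 0.203) and among repressors that of TFL1 (-1.16 ± 0.42, adjusted p = 0.149), both at a mean of about 1 FPKM. FT, which encodes florigen, was at -0.29 ± 0.27 and FLC, its repressor, at -0.45 ± 0.24. In the autonomous pathway, which holds FLC down, FLD (0.64 ± 0.16, adjusted p = 0.0456) and FCA (0.49 ± 0.10, adjusted p = 0.0322) were higher among 7 tested genes, against 1.67% over all genes. With the pair as a block 3 of the 7 were higher (10.7% over all genes). The median of the list was 0.29, and 0.01 with the length correction. FLD held 8.08, 8.09 and 7.53 FPKM in Total.WT, 6.83, 6.75 and 8.08 FPKM in Total.4e, 3.24, 3.99 and 4.11 FPKM in Ribo.WT and 6.16, 6.01 and 4.98 FPKM in Ribo.4e. The total libraries overlapped and the ribosome-bound ones did not. FLD lost the call without 10 libraries and FCA without 9 (adjusted p up to 0.12).

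In mRNA decay, VCS, a scaffold of decapping (0.38 ± 0.09, adjusted p = 0.0405), and XRN4, an exonuclease that degrades decapped mRNA (0.32 ± 0.08, adjusted p = 0.049), were higher. These were 2 of 10 tested genes, against 1.67% over all genes. With the pair as a block 3 were higher (10.7% over all genes). Of the 10 genes 6 lay above 0 and 4 below. With the length correction VCS was at -0.01 and XRN4 at 0.04, and the median of the list went from 0.10 to -0.03. STM (AT1G62360), which keeps the shoot meristem undivided into organs, was lower (-0.76 ± 0.17, adjusted p = 0.0364). It was the 1 called of 4 tested shoot meristem markers (2.35% lower over all genes), and DESeq2 called 0 of them. ABF3, a transcription factor of the abscisic acid response, was higher (0.36 ± 0.08, adjusted p = 0.0373). It was the 1 called of 19 tested cold and abscisic acid genes (1.67% higher over all genes). Of these 19 genes 10 lay above 0 and 9 below. With the pair as a block 2 of the 4 markers were lower, and 3 of the 19 genes were higher and 1 lower (10.7% higher and 12.3% lower over all genes). STM held 4.02, 4.56 and 5.65 FPKM in Total.WT, 6.82, 6.05 and 6.66 FPKM in Total.4e, 6.70, 6.17 and 6.62 FPKM in Ribo.WT and 5.02, 6.27 and 5.43 FPKM in Ribo.4e, so it differed in total mRNA and overlapped on ribosomes. VCS, XRN4, STM and ABF3 each lost the call without 9 to 11 of the 12 libraries (adjusted p up to 0.118).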

How the data were processed

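Raw counts per gene, as the authors deposited them in 1 table per library, were tested, and deposited FPKM values served for levels and the filter. Per the submitters' processing notes, TopHat2 2.0.11 and the TAIR10 build were used and no counting program is named there. Where a table lacked a gene, 0 counts were used (3308 genes, at most 51 counts elsewhere). Names came from the RefSeq table of TAIR10.1 (25710 of 25835 identifiers). The 19170 genes whose mean FPKM reached 1 were fitted in edgeR 4.0.16 (R 4.3.3) with TMM scaling and a mean for each group (8 residual degrees of freedom). The two-sided quasi-likelihood test of the interaction was adjusted after Benjamini-Hochberg over all of these genes, with a threshold of 0.05. SEs come from the estimate and its F statistic. Pair ratios used log2 CPM with a prior count of 2. Deposited FPKM values do not carry the TMM scaling, so levels and overlaps in FPKM can differ from the fitted log2 changes. For LSP1 the mean was 34.1 FPKM in Total.WT and 31.6 FPKM in Total.4e, where the fitted change in total mRNA was 0.02. Scripts were tested on simulated data.

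No replicates agreed within sampling noise (lowest chi-square per degree of freedom 7.13). Same-numbered libraries deviated together from their group means (correlations of 0.36 to 0.80 between ribosome-bound and total of 1 genotype, and of 0.19 to 0.53 across genotypes). The deposited index sheet numbers total and ribosome-bound libraries alike, so the numbers were taken as pairs for the pair ratios and the pair-block fits. The main fit, which gave the SEs and adjusted p-values unless a block is named, did not use the pairs. Beside named genes and lists, values with the pair as a block are given where they change a call.

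Named genes were EIF4E, LSP1 and NCBP, the 12 highest and 12 lowest interactions among called genes with a symbol, separated pairs and a mean of at least 5 FPKM, and up to 4 called members of a list (or the smallest p in clock, flowering and cap-binding lists). Other list members are named for comparison and were chosen after their values were seen. Members and lists were chosen with earlier results of these data known. The lists of ribosomal proteins, eIF3 and eIF2 subunits, light harvesting and photosystem genes were matched by name patterns, with 20 members taken out. The length correction subtracted a lowess trend (span 0.3) on log2 length from each library. Alternatives were other scalings, filters, DESeq2 1.42.0, limma-voom (limma 3.58.1), blocks and libraries left out.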

Additional observations from a re-analysis of the deposited data

Results flagged for a closer look

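The change between genotypes differed between total and ribosome-bound mRNA by the test of the interaction for 772 genes. In 72 genes total mRNA rose and ribosome-bound mRNA fell, each past the threshold, and in 38 genes total mRNA fell and ribosome-bound mRNA rose. All of these passed the interaction test as well.

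Among the named genes, 11 had such opposite calls. The interactions of those that rose in total and fell on ribosomes were -1.19 for AGL26, -1.05 for RALFL32 and -0.94 for SPT42. Those of genes that fell in total and rose on ribosomes were 0.74 for ATRX, 0.69 for SAB, 0.68 for MEE44, 0.67 for CPK23, 0.66 for emb2410, 0.65 for UPL1, 0.63 for TOR and 0.62 for DCL1.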

How the results depend on the processing

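The count of 772 genes became 479 with no filter on low values, 1343 with DESeq2, 1753 with limma-voom and library weights, 137 with the length correction and 1716 with the length correction and the pair as a replicate block. It became 1937 with the replicate number as a block, 4417 with the genotype by replicate pair as a block and, in settings added after the data were seen, 84 without mutant replicate 2 and 3093 without it with the pair as a block. Without 1 library it ran from 161 to 1607. Without replicate 1, 2 or 3 in all groups it was 0, 0 and 91 (edgeR, with 1940, 2490 and 3483 genes at an unadjusted p under 0.05; other tools were not run on these), so the lowest and highest values over all omissions were 0 and 1607. Each of these fits without a replicate number, the one with 91 calls included, held 8 libraries and had fewer residual degrees of freedom. Why their counts differed was not tested. The other settings (median-ratio scaling, library size alone, upper quartile, a mean of at least 5 FPKM and limma-voom) gave 627 to 983. In the make-up of the called genes, the share of lower genes that rose in total mRNA, 73.8%, was 63.6% with library size alone, 78.6% with no filter, 69.3% with a mean of at least 5 FPKM, 66.4% with the replicate number as a block, 90.23% with the length correction (total mRNA called in the corrected fit, against 89.5% with the uncorrected calls), 88.6% without mutant replicate 2, and 61.0 to 88% with libraries left out. The slope of the interaction per doubling of length, 0.24, was -0.0036 with the length correction and -0.0040 with the replicate block too, as the correction is built to give, and 0.19 to 0.30 with libraries left out. EIF4E passed with the pair as a replicate block (-1.01) and with the length correction and the block (-0.84), and ran from -1.45 to -0.23 with libraries left out. With the length correction, alone and with the block, these turned: UPL1 (-0.0619 and -0.0620), SYD (-0.0104 and -0.0096), UPL2 (-0.0154 and -0.0160), VCS (-0.0142 and -0.0137) and RAPTOR1 (-0.0414 and -0.0408). LSP1 turned without Ribo.WT 1 (-0.0136), Ribo.4e 3 (-0.0115) or replicate 3 (-0.0480) and was 0.1003 without replicate 2, the highest of its values with libraries left out. The pair as a block took the call from none of the 45 called named genes. Except where stated, the cause of these shifts was not tested. Counts limit low genes most: named genes near 1 FPKM have SEs of 0.35 to 0.42. MIR399d, with low counts in every library despite a mean of 8.45 FPKM, has an SE of 0.37.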

Other observations

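Some gene groups had negative median changes in total and in ribosome-bound mRNA alike, and a median interaction near 0. Of 10 tested genes of sulfur deficiency, the median change was -0.60 in total and -0.53 in ribosome-bound mRNA, and that of the interaction was 0.03. For 21 jasmonate genes the medians were -0.57, -0.46 and -0.04, and for 17 phosphate starvation genes -0.49, -0.36 and -0.06. The 23 root markers also had negative medians, of -0.54 and -0.79, but their median interaction lay further from 0. It was -0.12, or -0.10 with the length correction, and 17 of the 23 were below 0 (9790 of 19170 over all genes). In each of these 4 lists edgeR called 0 members in the interaction. At an unadjusted p under 0.05 there were 0 members in the sulfur, jasmonate and root lists and 1 higher in the phosphate list, and DESeq2 called 0 and 1 likewise. With the pair as a block edgeR called 1 higher and 2 lower in the sulfur list, 2 and 1 in the jasmonate list, 2 and 2 in the phosphate list and 0 and 3 among root markers, against 10.7% higher and 12.3% lower over all genes.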
